A study of Mus musculus with 24 samples.

Results

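Gene expression of transit-amplifying (TA) cells from the mouse small intestine was compared between Setd1a knockout and control animals. The comparison takes 8 of the 24 libraries of the series, chosen by label: the 4 sorted TA libraries labelled hom and the 4 labelled het. Hom animals carried Setd1aFC/FC and het animals Setd1aFC/+, so every control held a conditional Setd1a allele as well, and animals of both genotypes carried Lgr5-eGFP-CreERT2. All 8 animals received 1 mg of tamoxifen intraperitoneally on each of 3 days in a row, and crypts were taken 4 days after induction. Cells were sorted after staining for EpCAM, CD24 and CD45, and each library came from a different animal. The hom libraries came from animals BN45, BO25, BO57 and BP04, and the het libraries from BN44, BO27, BO58 and BP03. Age and strain background are not given in the sources used here.

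Setd1a is the catalytic subunit of a COMPASS complex, which places methyl groups on lysine 4 of histone H3 at the promoters of active genes. TA cells are the rapidly dividing progeny of Lgr5-positive crypt stem cells and give rise to enterocytes and secretory cells. Because Cre is driven from the Lgr5 locus, it acts in stem cells, and a TA cell carries the deletion only by descent from a recombined stem cell. The share of TA cells with the deletion was not measured. In sorted bulk samples, fewer cells of a type and less RNA per cell cannot be told apart.

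Het libraries held between 26.57 M and 39.76 M counts (M for mega) and hom libraries between 28.0 M and 32.71 M counts. Levels are in CPM, the count of a gene relative to the library total, after TMM scaling of the 8 libraries, as mean ± SD of 4 libraries where a group is summarised. The count of Setd1a, the targeted gene, sums all its exons (chromosome 7, 127776670 to 127800122, mm10) and stood between 3.89 and 7.76 CPM in het and between 5.17 and 7.65 CPM in hom libraries, so it did not check the genotype labels. In het animals the TA fraction had the dividing-cell gene Mki67 at 174 ± 36.1 CPM and Mcm6 at 308 ± 43.1 CPM, against 69.0 ± 7.48 and 86.6 ± 5.05 CPM in the Paneth fraction, on a common scaling of 24 libraries. The stem cell receptor gene Lgr5 was lower in TA than in stem libraries by edgeR (log2 fold change -4.23, adjusted p = 3.6e-10). Mki67 did not differ detectably between TA and stem libraries (log2 fold change -0.04, adjusted p = 0.97), and the TA libraries also held goblet cell transcripts, with Muc2 at 1160 ± 590 CPM against 9.88 ± 6.55 CPM in stem libraries. The TA name therefore rests on low stem markers together with high division genes, in a fraction that includes goblet cell RNA.

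No gene of 15925 tested passed an adjusted p of 0.05 in edgeR's quasi-likelihood test of hom against het (0%). At an unadjusted p under 0.05 there were 942 genes (5.92%), of which 464 were higher in hom (2.91%) and 478 lower (3.00%). In 332 genes all hom libraries lay above all het libraries (2.08%), and in 330 genes all lay below (2.07%). DESeq2 called 121 of the 18567 genes it tested (0.652%), 47 higher and 74 lower. Limited to the 10248 genes with a mean of at least 5 CPM, edgeR called 4 (0.0390%): Coq9 and the pseudogene Rps13-ps2 lower, Ephx1 and the pseudogene Rps13-ps1 higher in hom. A fit of all 24 libraries called 1 gene of 19396 in TA cells (0.00516%), Coq9. The values below therefore describe leading genes and groups, and an unadjusted p is given as such.

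The genes named first are the 15 lower and 15 higher ones of smallest p with a mean of at least 5 CPM, leaving out symbols of the form Gm with digits, those ending in Rik and those of numbered pseudogenes ending in -ps. The leading pseudogenes left out, Rps13-ps1 and Rps13-ps2, are described with the ribosomal protein genes. Of the 15 lower genes, Coq9, Samm50, Rtn4ip1, Coasy, Mrpl2 and Ndufv1 encode mitochondrial proteins, a grouping made after the values were seen. Coq9 encodes a lipid-binding protein that serves the hydroxylation step of coenzyme Q synthesis, the lipid that carries electrons between respiratory complexes. Its level was 125, 118, 107 and 113 CPM in the het libraries of BN44, BO27, BO58 and BP03, and 63.8, 47.2, 60.4 and 55.6 CPM in the hom libraries of BN45, BO25, BO57 and BP04. The highest hom library lay well below the lowest het library. The log2 fold change was -1.03 (SE 0.13), with an edgeR adjusted p of 0.098 over all genes, 0.028 among genes of at least 5 CPM and 0.024 in the fit of 24 libraries (range over all alternatives 5.0e-10 to 0.40). Over all alternatives the log2 fold change of Coq9 lay between -1.09 and -0.95. Coq9 lies on chromosome 8 from 94838321 to 94854895 (mm10, plus strand).

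Among the other genes of coenzyme Q synthesis, Coq2 and Pdss2 had the smallest p. Coq2, which attaches the polyprenyl tail to the ring precursor, stood at 34.2, 35.5, 41.4 and 30.7 CPM in het and 16.9, 21.8, 29.6 and 24.1 CPM in hom libraries (log2 -0.62, SE 0.19, edgeR adjusted p = 0.67). Pdss2, a subunit of the enzyme that builds that tail, stood at 45.6 ± 3.56 CPM in het and 36.2 ± 2.50 CPM in hom (log2 -0.33, SE 0.13, edgeR adjusted p = 0.80). For both genes every hom library was below every het library, which held for 2.07% of all genes. Of 14 tested genes of the pathway, 12 had a negative sign and the median log2 fold change was -0.24. With Coq9 itself counted, 3 had an unadjusted p under 0.05, all lower, against 3.00% of all genes lower. Over all 15925 genes the median was 0.0003. Coq7, the hydroxylase that Coq9 serves, stood at 133 ± 12.2 CPM in het and 110 ± 23.0 CPM in hom, with overlapping groups. Coq8a and Coq10a had positive signs (log2 0.06 and 0.53), so the sign was not shared by every member. With any 1 library left out, between 2 and 4 pathway genes had an unadjusted p under 0.05, all lower.

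**Figure D1:**
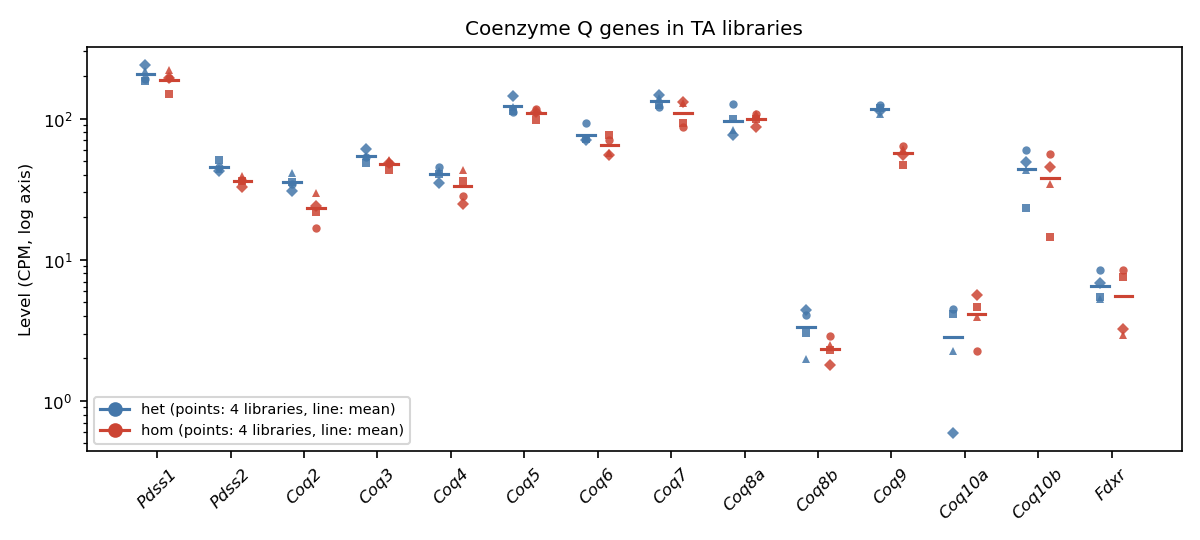
Levels of 14 tested coenzyme Q genes (CPM, log axis) in each TA library, with het libraries in blue, hom libraries in red and group means as lines. Coq9, Coq2 and Pdss2 are the genes whose hom points all lie below the het points.

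The other mitochondrial genes at the head of the lower list span several compartments. Coasy carries out the last steps of coenzyme A synthesis, and its level was 40.8, 29.4, 23.0 and 26.7 CPM in het and 14.2, 12.6, 17.8 and 10.7 CPM in hom libraries (log2 -1.12, SE 0.23). Samm50, the core of the machine that inserts barrel proteins into the outer membrane, was at 151 ± 14.4 CPM in het and 98.1 ± 9.97 CPM in hom (log2 -0.63, SE 0.13). Rtn4ip1, a mitochondrial oxidoreductase, was at 31.1 ± 4.57 and 14.9 ± 4.07 CPM (log2 -1.06, SE 0.21). In each of these 3 genes the groups did not overlap, and the edgeR adjusted p was 0.45 for Coasy and 0.44 for Samm50 and Rtn4ip1.

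Genes of the respiratory complexes did not share a direction. Ndufv1, the flavin-binding subunit through which complex I takes electrons from NADH, stood at 400, 338, 361 and 351 CPM in het and 213, 240, 264 and 260 CPM in hom libraries (log2 -0.57, SE 0.12, edgeR adjusted p = 0.45). Ndufa1, a small accessory subunit of the same complex, stood at 91.6, 91.0, 78.5 and 74.4 CPM in het and 125, 118, 115 and 134 CPM in hom libraries (log2 0.55, SE 0.12, edgeR adjusted p = 0.47). Both genes separated the groups completely, in opposite directions. Of 36 complex I genes, 21 had a positive sign, 2 were higher and 2 lower at an unadjusted p under 0.05, near the 2.91% and 3.00% of all genes. The number with a positive sign was 13 without BN44, 17 without BP04 and 27 without BN45. Of 38 tested genes of complexes II to V, 22 had a positive sign, 4 were higher and 2 lower. Sdhc, a membrane anchor of succinate dehydrogenase, was the lower gene of smallest p among them, at 415, 324, 352 and 318 CPM in het and 181, 203, 278 and 231 CPM in hom libraries (log2 -0.66, SE 0.16). The count of 4 higher became 12 without hom BN45, 7 without BO27 and 2 without BN44, BO25 or BP04. The genes higher at an unadjusted p under 0.05 in these complexes, Cox6b1, Cox6c, Cox7c and Atp5j2, are small subunits. Among 13 genes encoded by mitochondrial DNA, mt-Nd5 had the smallest p, at 6540 ± 838 CPM in het and 4830 ± 751 CPM in hom (log2 -0.44, SE 0.14). Its groups overlapped, and no other of the 13 had an unadjusted p under 0.05.

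Mitochondrial ribosomal protein genes, which translate those mitochondrial messages, gave 8 of 77 at an unadjusted p under 0.05, all lower, against 3.00% of all genes. Mrpl2, of the large subunit, stood at 128, 117, 128 and 145 CPM in het and 56.9, 65.4, 85.1 and 89.9 CPM in hom libraries (log2 -0.80, SE 0.17). Mrpl10 stood at 81.1 to 117 CPM in het and 55.4 to 72.2 CPM in hom (log2 -0.58, SE 0.15), and Mrps5 of the small subunit at 28.7 to 44.8 and 20.3 to 26.4 CPM (log2 -0.64, SE 0.18). For all 3 genes the groups did not overlap. Of the 77 genes, 5 had every hom library below every het library, against 2.07% of all genes. The 3 genes were named for small p in the same libraries, so their separation is no separate support. The median over all 77 genes was -0.07, and it was 0.01 without hom BN45, -0.14 without BP04 and -0.16 without BN44, where 68 of 77 were negative. Without BO25, BO58 or BP03 it lay between -0.02 and -0.01. The count of 8 was 5 without BO25, BO58 or BP03.

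Further genes at the head of the lower list act in the secretory pathway and in protein modification. Ccdc91, a partner of the GGA adaptors at the trans-Golgi, had 36.1, 34.1, 27.6 and 28.5 CPM in het and 9.49, 7.68, 17.2 and 10.8 CPM in hom libraries. Its log2 fold change of -1.48 (SE 0.25) was the most negative of the 15 genes, with an edgeR adjusted p of 0.25. Tvp23b, a Golgi membrane protein gene, stood at 123 ± 7.42 CPM in het and 71.1 ± 12.2 CPM in hom (log2 -0.80, SE 0.15). The Golgi SNARE gene Gosr2 stood at 53.3 ± 12.1 and 30.4 ± 1.94 CPM (log2 -0.81, SE 0.17). Ufl1 encodes the ligase that attaches the ubiquitin-like protein UFM1 to its targets at the endoplasmic reticulum. It stood at 52.5 ± 7.66 CPM in het and 24.7 ± 6.18 CPM in hom, with no overlap (log2 -1.09, SE 0.21, edgeR adjusted p = 0.37). Of its partners in the same reaction, Ufm1 itself had a log2 fold change of 0.01 (SE 0.13) and Cdk5rap3 of -0.49 (SE 0.26). Of 15 tested genes of UFMylation and of autophagy of the endoplasmic reticulum, Ufl1 and Odr4 were lower at an unadjusted p under 0.05. The share over all genes was 3.00% lower. Without BO25, BO58, BP03 or BP04 the list had 1 such gene.

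The remaining genes of the lower list act in the nucleus, in signalling or in protein turnover. Zfp512, a zinc finger gene, had 19.5, 15.8, 15.9 and 13.7 CPM in het and 7.31, 6.49, 6.39 and 6.24 CPM in hom libraries. The 4 hom values lay close together (log2 -1.30, SE 0.19, edgeR adjusted p = 0.098). Bcl7b, a subunit of the SWI/SNF chromatin remodelling complex, stood at 35.8 ± 3.20 CPM in het and 21.9 ± 1.66 CPM in hom (log2 -0.71, SE 0.14). Cops7a, of the COP9 signalosome, stood at 134 ± 16.5 and 84.7 ± 10.6 CPM (log2 -0.66, SE 0.14), and Nkiras2, which restrains NF-kB signalling, at 46.9 to 59.0 and 24.6 to 35.9 CPM (log2 -0.74, SE 0.16). The processed pseudogene AC139296.1 completed the list at 16.3 ± 1.81 and 8.85 ± 1.30 CPM. All 15 genes had groups that did not overlap, and all 15 passed by DESeq2, while their edgeR adjusted p ran from 0.098 to 0.47. Over all genes 2.07% lay below without overlap, and DESeq2 called 0.652% of those it tested. The 15 were chosen for small p in the same libraries, so these counts are no separate support.

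**Figure D2:**
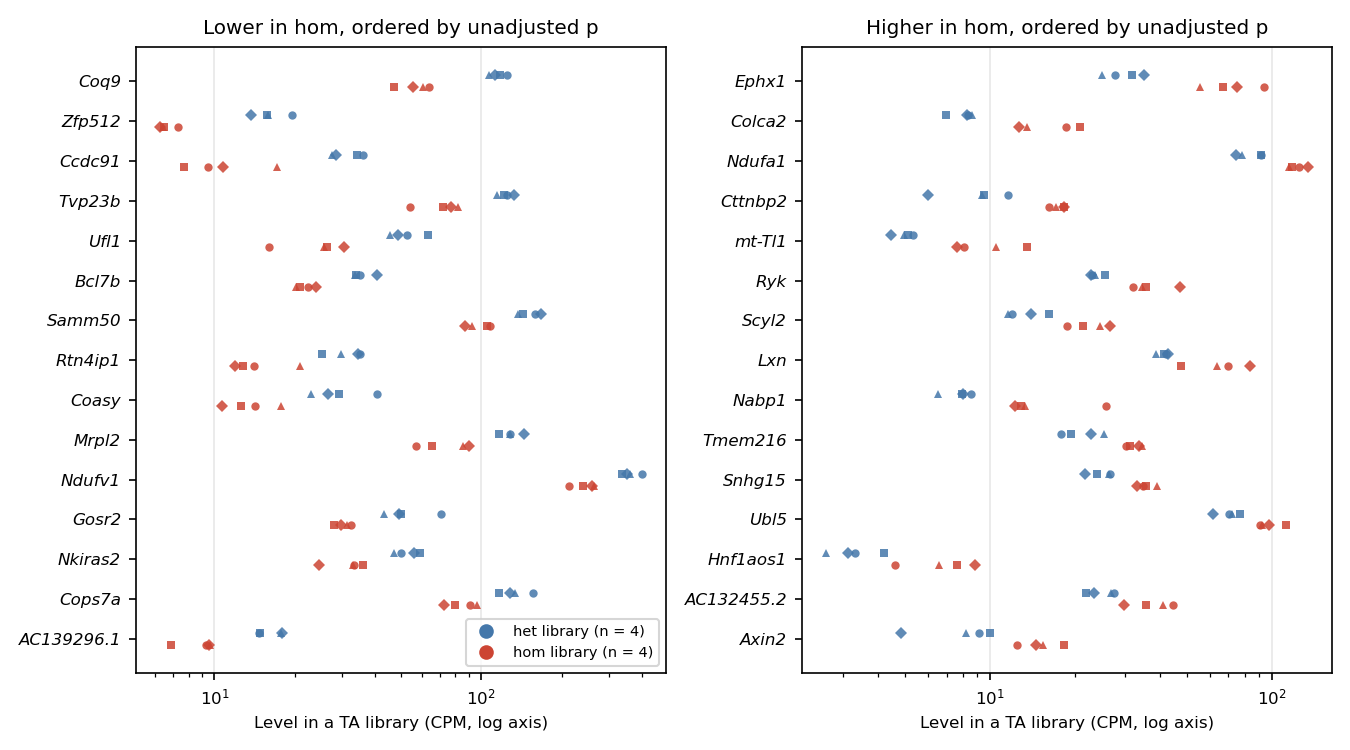
Level in each TA library (CPM, log axis) of the 15 lower and 15 higher genes of smallest unadjusted p with a mean of at least 5 CPM, without Gm, Rik and -ps symbols, het in blue and hom in red. Het and hom points do not overlap for any of the 30 genes. The genes were chosen from this same comparison.

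Of the 15 higher genes named by the same rule, Ephx1 had the smallest p. It encodes the microsomal epoxide hydrolase, an enzyme of xenobiotic detoxification that is also induced through p53 and related stress pathways. Its level was 27.7, 31.8, 24.9 and 35.0 CPM in het and 93.7, 67.0, 55.5 and 75.3 CPM in hom libraries (log2 1.29, SE 0.19). The lowest hom library exceeded the highest het library. The edgeR adjusted p was 0.098 over all genes and 0.033 among those of at least 5 CPM (range over all alternatives 4.2e-07 to 0.57), and the log2 fold change lay between 1.14 and 1.40 over the alternatives. Of 51 tested xenobiotic and antioxidant genes, 36 had a positive sign, the median log2 fold change was 0.11, and 6 were higher at an unadjusted p under 0.05 with none lower, against 2.91% of all genes higher. The others were Gsta3, Gstm1, Mgst2, Cyp2c65 and Abcc2, and for each of these 5 the groups overlapped. Of the 51 genes, 3 had every hom library above every het library, Ephx1 among them, against 2.08% of all genes. Without BO25 the count of 6 was 3, and the median was 0.037 without BN44 and 0.185 without BP03. Of 38 tested p53 targets, 3 were higher at an unadjusted p under 0.05 (Ephx1, Ccng1 and Psrc1), against 2.91% of all genes higher. The median of the 38 was 0.12 (0.242 without BN44, 0.193 without BP04 and 0.073 without BO25). The cell cycle regulator Ccng1 stood at 111, 127, 138 and 140 CPM in het and 166, 190, 164 and 171 CPM in hom libraries (log2 0.42, SE 0.12, edgeR adjusted p = 0.64).

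The higher list also held genes of the Wnt pathway, which maintains crypt stem cells. Axin2, a negative feedback target of Wnt signalling, had 9.11, 10.0, 8.23 and 4.81 CPM in het and 12.4, 18.2, 15.4 and 14.5 CPM in hom libraries (log2 0.91, SE 0.25, edgeR adjusted p = 0.62). Ryk, a Wnt co-receptor, stood at 23.0, 25.5, 23.5 and 22.7 CPM in het and 32.1, 35.8, 34.6 and 47.3 CPM in hom libraries (log2 0.66, SE 0.16). Neither gene had overlapping groups. Of 17 tested Wnt targets, 14 had a positive sign and the median was 0.33. At an unadjusted p under 0.05, 3 were higher (Axin2, Lgr5 and Rgmb) and 1 lower, against 2.91% and 3.00% of all genes. The median was 0.169 without BP03, 0.173 without BO58 and 0.513 without BN44. The lower gene was the cyclin gene Ccnd1, at 53.7 ± 14.0 CPM in het and 37.2 ± 3.51 CPM in hom (log2 -0.53, SE 0.20). Of 30 stem cell markers, 28 had a positive sign and the median was 0.34, and 7 were higher at an unadjusted p under 0.05 with none lower, against 2.91% of all genes higher. They were Lgr5, Rgmb, Axin2, Tnfrsf19, Soat1, Afap1l1 and Scn2b. Olfm4 and Smoc2, also defining stem markers, had log2 fold changes of 0.29 (SE 0.20) and -0.14 (SE 0.15). The count of 7 was 4 without BN45, BO58 or BP04 and 3 without BP03, where the median was 0.16. The part that stem cells in the TA gate have in these values was not tested.

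The other higher genes belong to no single pathway. Colca2, a coactivator of the tuft cell factor Pou2f3, stood at 8.05 ± 0.734 CPM in het and 16.4 ± 3.92 CPM in hom (log2 1.02, SE 0.21). The summed level of 28 tuft cell markers ran from 12.83 to 24.35 CPM in het and from 16.36 to 76.23 CPM in hom libraries, with 3 markers at 0 in every library; their part in the Colca2 result was not tested. Lxn, an inhibitor of carboxypeptidases, stood at 41.2 ± 1.80 and 66.3 ± 15.0 CPM (log2 0.69, SE 0.17). Nabp1, a single-stranded DNA binding protein gene, had 25.7 CPM in hom BN45 against 12.2 to 13.3 CPM in the other hom libraries and 6.52 to 8.55 CPM in het libraries. Cttnbp2, a cortactin-binding protein gene, stood at 9.09 ± 2.30 and 17.4 ± 1.02 CPM (log2 0.94, SE 0.22), and Scyl2, of clathrin transport, at 13.4 ± 2.08 and 22.8 ± 3.44 CPM (log2 0.77, SE 0.19). Tmem216, of the base of the primary cilium, and Ubl5, a ubiquitin-like modifier of splicing, had log2 fold changes of 0.61 (SE 0.16) and 0.48 (SE 0.13). The list also held 4 genes that make no protein. They were the mitochondrial leucine tRNA gene mt-Tl1, the small nucleolar RNA host gene Snhg15, the long non-coding RNA AC132455.2 and the antisense gene Hnf1aos1. Counting ignored strand, so the counts of Hnf1aos1 can hold reads from the opposite strand. All 15 higher genes had groups that did not overlap, 12 passed by DESeq2, and their edgeR adjusted p ran from 0.098 to 0.62. Over all genes 2.08% lay above without overlap, and DESeq2 called 0.652% of those it tested. As with the lower genes, the choice by small p makes these counts no separate support.

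Cytosolic ribosomal protein genes were the list with the most members of small p. Of 77 tested, 72 had a positive sign, the median log2 fold change was 0.22, and 19 were higher at an unadjusted p under 0.05 with none lower, against 2.91% of all genes. In 12 of them every hom library was above every het library, against 2.08% of all genes. Rps26 stood at 209, 231, 186 and 162 CPM in het and 252, 298, 261 and 268 CPM in hom libraries (log2 0.45, SE 0.14). Rpl22 stood at 145, 134, 123 and 114 CPM in het and 174, 209, 166 and 165 CPM in hom libraries (log2 0.47, SE 0.13). In both genes the groups did not overlap, although the differences were well under those of Coq9 or Ephx1. The count of 19 was 8 without het BP03 and between 13 and 23 without any other single library.

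Transcripts that share sequence with these genes were counted beside them. Of 172 tested pseudogenes of ribosomal proteins, 27 were higher and 1 lower at an unadjusted p under 0.05, against 2.91% and 3.00% of all genes. The median of the 172 was 0.31. Reads can be split between a ribosomal protein gene and its copies, so these counts are uncertain. Among all 2180 processed pseudogenes tested, 78 were higher and 18 lower, and among 353 lincRNAs 29 were higher and 4 lower, whereas 309 protein-coding genes were higher and 437 lower of 11903. Ribosomal protein genes took 1.77 ± 0.118% of counts in het and 2.00 ± 0.0971% in hom libraries (exact two-sided permutation p = 0.0571, n = 4 each, 0.209 after adjustment over 11 library measures). Pseudogenes took 7.92 ± 0.282% and 8.29 ± 0.362%, respectively, with overlapping groups. Among the 2381 protein-coding genes with the shortest summed exons (up to 2412 bases) 88 were higher and 87 lower at an unadjusted p under 0.05, and among the next 2381 genes 44 were higher and 115 lower. The part of these properties in the ribosomal protein result was not tested.

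The copies of Rps13 were the leading pseudogenes left out above. The pseudogene Rps13-ps2 was at 65.9, 79.4, 81.3 and 62.2 CPM in het and 17.5, 30.3, 29.0 and 20.7 CPM in hom libraries, while Rps13-ps1 was at 55.5 to 74.7 CPM in het and 117 to 177 CPM in hom libraries. Both separated the genotypes completely and in opposite directions (log2 -1.57, SE 0.20, and 1.22, SE 0.17). Their sum was 138 ± 18.9 CPM in het and 178 ± 33.8 CPM in hom (exact two-sided permutation p = 0.114, n = 4 each). The parent gene Rps13 stood at 10.2 ± 2.90 CPM in het and 11.4 ± 4.00 CPM in hom (log2 0.16, SE 0.29). Rps13-ps2 had log2 fold changes of -2.09 (SE 0.29) in stem and -1.78 (SE 0.29) in Paneth libraries. Those of Rps13-ps1 were 0.62 (SE 0.26) and 1.05 (SE 0.26). Rps13 (from base 116331505) and Rps13-ps2 (from base 88530446) lie on chromosome 7, as Setd1a does, and Rps13-ps1 lies on chromosome 8. Any sequence linked to the targeted Setd1a allele goes with genotype, so its part cannot be told apart from that of the knockout. The cause of the opposite directions was not tested.

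DNA replication genes, which dividing TA cells express at high level, were mostly of negative sign. Of 58 tested, 51 had a negative sign, the median log2 fold change was -0.16, and 9 were lower at an unadjusted p under 0.05 with none higher, against 3.00% of all genes lower. Cdc6, which loads the replicative helicase onto origins, stood at 44.2, 35.0, 38.2 and 48.5 CPM in het and 25.9, 22.5, 25.3 and 31.6 CPM in hom libraries (log2 -0.66, SE 0.16, edgeR adjusted p = 0.53). Pold2, a subunit of DNA polymerase delta, stood at 121 to 155 and 86.7 to 115 CPM (log2 -0.46, SE 0.13). Rrm2, the regulated subunit of ribonucleotide reductase, stood at 264 ± 80.6 and 171 ± 47.9 CPM with overlapping groups. The count of 9 was 3 without BO25 or BP03 (medians -0.10 and -0.10), and the median was -0.27 without BO27. Genes of G2 and mitosis gave 1 higher and 1 lower of 52, with a median of -0.06, and Mki67 had a log2 fold change of -0.01 (SE 0.19).

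DNA repair genes had differences of both signs, with 6 lower and 3 higher of 67 at an unadjusted p under 0.05. Over all genes the shares were 3.00% and 2.91%, and the count of 3 higher is near that share. The Fanconi anemia gene Fanci stood at 3.65, 4.55, 6.20 and 8.39 CPM in het and 1.33, 3.23, 1.85 and 1.92 CPM in hom libraries. Rad50, Xrcc3, Prkdc and Lig4, all of double-strand break repair, were also among the lower genes, with log2 fold changes of -0.64, -0.65, -0.78 and -1.02. The higher ones were Rad52, Lig3 and Trp53bp1 (0.84, 0.79 and 0.75), and for Trp53bp1, a scaffold at double-strand breaks, the groups overlapped by a small margin at 7.23 to 11.8 CPM in het and 11.3 to 17.4 CPM in hom.

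Groups with a shared sign but few members of small p were also present. Of 27 tested genes of the unfolded protein and integrated stress responses, 23 had a negative sign, the median was -0.18, and 3 were lower at an unadjusted p under 0.05 (1 without BP04 and 5 without BO27). Dnajc3, an inhibitor of eIF2 alpha kinases that also acts as a chaperone, stood at 170, 158, 215 and 227 CPM in het and 137, 134, 142 and 135 CPM in hom libraries (log2 -0.49, SE 0.14). Of 25 cholesterol synthesis genes, 21 had a negative sign and none an unadjusted p under 0.05. Of 36 tested interferon response and MHC class II genes, 29 had a negative sign, the median was -0.24, and the immunoproteasome genes Psmb8 and Psmb9 were lower at an unadjusted p under 0.05. Without het BN44 the signs were 16 positive and 20 negative, the median was -0.06 and 0 genes were lower at that p by edgeR. The count was also 0 without BO57 or BP04 (medians -0.12 and -0.10), 1 without BP03, and 4 without BN45 (median -0.40). Over all genes the shares of positive and negative signs were near even, with 7970 positive of 15925. At an unadjusted p under 0.05, 3.00% of all genes were lower and 2.91% higher. Of 34 fatty acid oxidation genes and PPAR targets, 2 were lower, Cpt2 and Angptl4, and Pparg was higher (log2 0.96, SE 0.31).

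**Figure D3:**
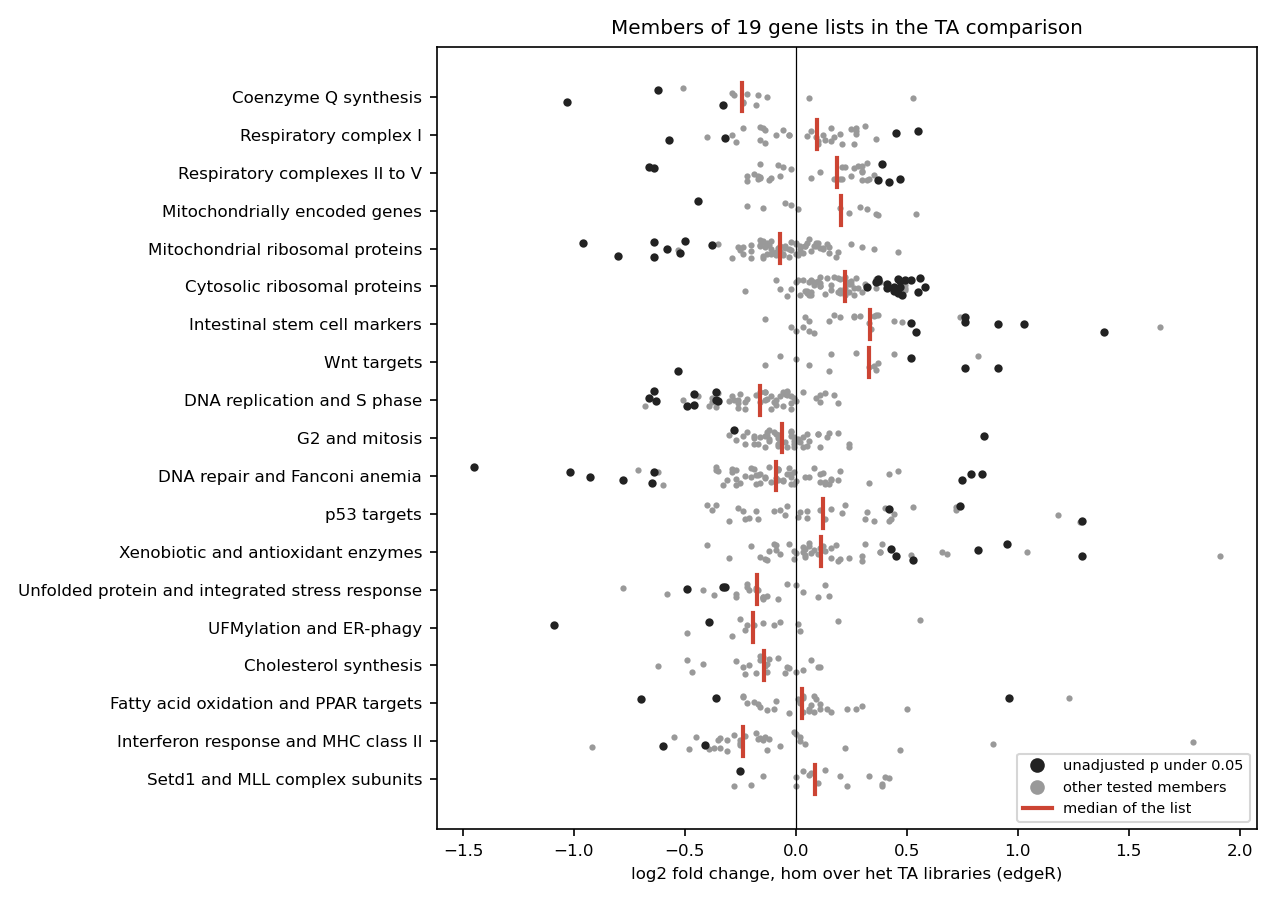
Fold change of each tested member of 19 gene lists (log2, hom over het TA libraries), with members at an unadjusted p under 0.05 in black, the others in grey and the list median as a red bar. Cytosolic ribosomal proteins (median 0.22) and stem cell markers (median 0.34) lie mostly right of 0, and coenzyme Q (median -0.24) and replication genes (median -0.16) mostly left.

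The subunits of the Setd1 and MLL complexes, which share most of their parts, came next. Of 18 tested, 1 had an unadjusted p under 0.05, the shared subunit Hcfc1, at 59.1, 64.4, 64.0 and 61.8 CPM in het and 53.6, 51.9, 54.0 and 50.6 CPM in hom libraries (log2 -0.25, SE 0.11, edgeR adjusted p = 0.84). The hom libraries all lay below the het libraries, by a small step, which held for 2.07% of all genes. At an unadjusted p under 0.05, 3.00% of all genes were lower. Of the 18 subunits, 12 had a positive and 6 a negative sign, with a median log2 fold change of 0.08. The count of 1 lower stayed 1 without BN44 or BO25 and was 0 without any other single library. Setd1b, the closest paralog of Setd1a, had a log2 fold change of 0.03 (SE 0.21), and Cxxc1, which anchors both at CpG islands, stood at 20.1 ± 3.19 CPM in het and 20.1 ± 0.640 CPM in hom. Within 10000000 bases of Setd1a, 205 genes were tested, and 16 had an unadjusted p under 0.05 (7.8%, against 5.92% of all genes), 6 higher and 10 lower. Dctn5, of the dynactin motor complex, had the smallest p there (log2 -0.67), and Bckdk, a kinase of branched-chain amino acid breakdown, was the nearest of the 16 (log2 -0.58).

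Promoter sequence was described for the leading genes because COMPASS is recruited to CpG-rich promoters. RefSeq windows (GRCm38.p6) of 250 bases before to 50 bases after a start were matched for 12 of the 15 lower and 11 of the 15 higher genes. The median count of CpG pairs per window was 29.5 in the lower and 28.0 in the higher genes, against 23.0 in the 7106 matched genes of at least 5 CPM. The sequence GGGCGG, on either strand, was present in 11 of 12 and 10 of 11, against 70.5% of those genes and 38.2% of all genes with a window. CACGTG, which reads the same on both strands, was present in 5 of 12 lower genes and 1 of 11 higher genes, against 12.4%. That share was not seen more widely: among the 309 matched genes lower at an unadjusted p under 0.05 it was 11.7%. TATAAA was present in 0 of 12 and 2 of 11 (8.8% of genes of at least 5 CPM), CCAAT in 4 of 12 and 4 of 11 (43.7%), and CCGGAAG in 4 of 12 and 4 of 11 (23.4%). Over all matched genes at an unadjusted p under 0.05, CCGGAAG was present in 32.7% of lower and 18.5% of higher genes, and TATAAA in 8.41% and 16.9%. GGGCGG was present in 67.0% of those lower and 57.3% of those higher genes, both under 70.5%. The median count of CpG pairs was under 23.0 in both of these wider sets. The higher CpG count and GGGCGG share of the leading genes were thus not seen more widely. These are descriptions of letters in a window, with no test. The stretches around CACGTG are printed for the 4 lower genes in which it lies outside annotated exons, with the motif in capitals, each 5′ to 3′ on the strand of its gene. They lie at chr5:31452357-31452402 (plus strand), chr5:135168204-135168249 (plus), chr17:46646070-46646115 (plus) and chr19:4012899-4012944 (minus).
Zfp512: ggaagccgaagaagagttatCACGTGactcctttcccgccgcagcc
Bcl7b: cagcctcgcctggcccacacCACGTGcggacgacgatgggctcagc
Mrpl2: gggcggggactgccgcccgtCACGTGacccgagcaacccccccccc
Ndufv1: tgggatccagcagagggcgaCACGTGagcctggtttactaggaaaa

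The largest lower and higher differences among protein-coding genes of the 30 came from promoters of unlike base composition. Ccdc91 (log2 -1.48) is shown with 29 CpG pairs in 250 bases and Ephx1 (log2 1.29) with 3 CpG pairs in 250 bases, each stretch directly before a RefSeq start and inside the annotated span of its gene. Capitals mark matches, on either strand, to GGGCGG and CCGGAAG in Ccdc91 and to TATAAA and CCAAT in Ephx1. The stretches are chr6:147476115-147476364 (plus strand) for Ccdc91 and chr1:181017570-181017819 (minus strand) for Ephx1.
Ccdc91: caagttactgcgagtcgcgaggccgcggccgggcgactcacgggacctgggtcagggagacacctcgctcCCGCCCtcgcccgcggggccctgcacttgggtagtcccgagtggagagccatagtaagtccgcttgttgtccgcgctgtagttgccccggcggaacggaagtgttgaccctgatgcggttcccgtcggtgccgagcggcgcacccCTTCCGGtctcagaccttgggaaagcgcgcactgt
Ephx1: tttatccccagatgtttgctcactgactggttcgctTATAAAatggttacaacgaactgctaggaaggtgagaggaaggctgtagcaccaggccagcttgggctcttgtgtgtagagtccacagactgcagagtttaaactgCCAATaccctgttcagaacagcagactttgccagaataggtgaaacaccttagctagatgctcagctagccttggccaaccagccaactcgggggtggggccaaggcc

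Some of the leading genes share a promoter region with a gene on the opposite strand. Mrpl2 starts 207 bases from Klc4, a kinesin light chain gene, and the CACGTG printed for Mrpl2 lies between the starts. Klc4 stood at 20.1 ± 4.03 CPM in het and 13.5 ± 7.01 CPM in hom (log2 -0.58, SE 0.35). Rtn4ip1 starts 62 bases from Qrsl1, which had a log2 fold change of -0.14 (SE 0.14) against -1.06 for Rtn4ip1. Ndufa1 starts 82 bases from Rnf113a1 (log2 -0.13, SE 0.36) against 0.55 for Ndufa1. None of these 3 neighbours had an unadjusted p under 0.05. A start on the other strand within 1000 bases upstream was found for 23.3% of protein-coding genes lower and 14.7% of those higher at an unadjusted p under 0.05, against 17.4% of all protein-coding genes of at least 5 CPM.

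The genotype difference in TA cells was set against that in the stem and Paneth fractions of the same 8 animals. This used 1 fit of 24 libraries with no term for animal. For the difference between the TA and the stem effect, 0 of 19396 genes passed by edgeR (0%), with 767 at an unadjusted p under 0.05 (3.95%), and DESeq2 called 19. For TA minus Paneth, 1 gene passed (0.00516%) and 965 had an unadjusted p under 0.05 (4.98%). Coq9 had log2 fold changes of -0.91 (SE 0.16) in stem and -0.17 (SE 0.16) in Paneth libraries. The TA minus Paneth difference of Coq9 was -0.87 (edgeR adjusted p = 0.76) and the TA minus stem difference -0.12 (edgeR adjusted p = 1.0). Ephx1 stood at 26.1 ± 3.93 CPM in het and 63.4 ± 14.3 CPM in hom TA libraries on this common scaling, and at 33.9 ± 5.17 and 78.4 ± 24.4 CPM in stem libraries. Zfp512 had a log2 fold change of -0.09 (SE 0.29) in stem libraries and a TA minus stem difference of -1.22 (edgeR adjusted p = 1.0). Axin2 and Ryk stood at -0.14 (SE 0.33) and -0.41 (SE 0.18) in stem libraries, and the TA minus stem difference was 1.04 for Axin2 and 1.06 for Ryk. None of these differences passed after adjustment in edgeR. Ryk was among the 19 DESeq2 calls for TA minus stem (DESeq2 adjusted p = 0.05). DESeq2 called 31 genes for TA minus Paneth, Ccdc91 among them (difference -1.73, DESeq2 adjusted p = 0.033). The DESeq2 calls also held extreme log2 differences, such as 32.26 for Car10 (TA minus stem) and 42.79 for Gm38404 (TA minus Paneth). Igfbpl1, also called for TA minus stem, stood at 0.0 CPM in hom stem libraries. The 30 genes were chosen for their difference in TA cells, which enters each of these differences.

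**Figure D4:**
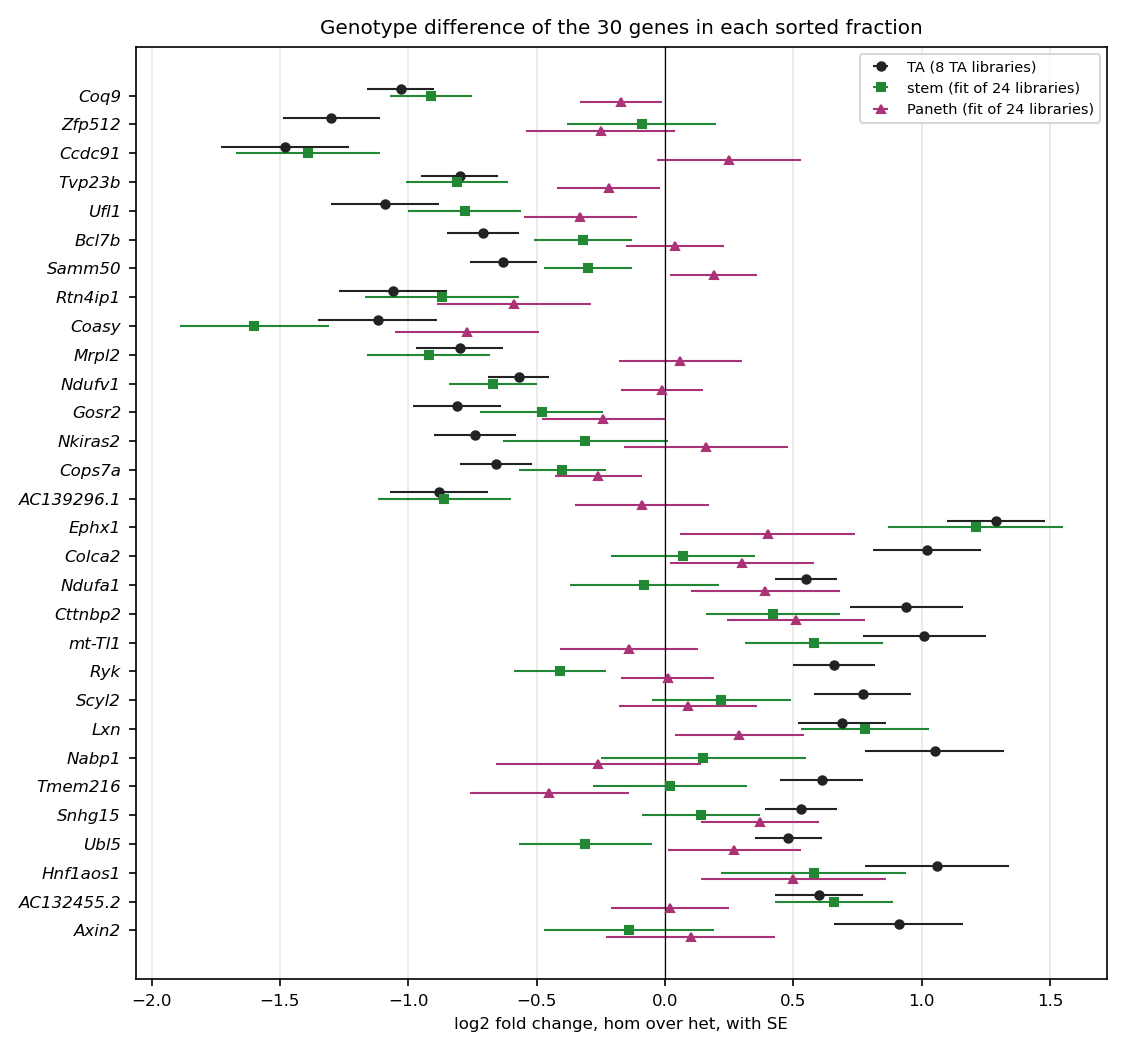
Genotype difference (log2, hom over het, bars SE) of the 15 lower and 15 higher TA genes, in TA libraries (black), stem libraries (green) and Paneth libraries (purple). The TA values chose the genes; stem values of Coq9 (-0.91) and Ephx1 (1.21) lie near the TA values and those of Zfp512 (-0.09) and Axin2 (-0.14) do not.

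The gene that passed for TA minus Paneth was Cyp2c55, a cytochrome P450 of the gut epithelium (difference -7.09, edgeR adjusted p = 0.023). In TA libraries it stood at 7.61 ± 3.92 CPM in het and 7.77 ± 2.42 CPM in hom, and in Paneth libraries at 0.0904 ± 0.110 and 12.6 ± 8.94 CPM. The difference thus lay in the Paneth libraries. The call was kept without BO58 and lost without each of the other 7 animals. The call was also lost by limma voom with animal as a random block, where 0 genes passed. It was kept at a mean of 5 CPM (edgeR adjusted p = 0.0073) and by DESeq2 (DESeq2 adjusted p = 6e-09). Timmdc1, an assembly factor of complex I, was among the genes of next smallest p. It stood at 6.06 ± 0.748 CPM in het and 2.31 ± 1.07 CPM in hom TA libraries, at 5.20 ± 0.900 and 2.29 ± 0.771 CPM in stem libraries, and at 3.02 ± 0.946 and 6.30 ± 1.66 CPM in Paneth libraries (TA minus Paneth -2.45, edgeR adjusted p = 0.28).

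Several genes of low level separated the genotypes by large factors and were called by DESeq2. They were singled out after their values were seen. Il1rn, the interleukin 1 receptor antagonist gene, had 0 counts in all 4 het libraries and 165, 211, 8 and 137 counts in hom BN45, BO25, BO57 and BP04. Klhl13, an adaptor of a ubiquitin ligase, also had 0 counts in all het libraries and 117, 4, 85 and 38 counts in hom libraries. Iigp1, an interferon-induced GTPase gene, had the opposite pattern, with 202, 236, 72 and 267 counts in het and 0, 1, 1 and 7 counts in hom libraries. The edgeR adjusted p of Iigp1 was 0.098, and Il1rn and Klhl13 did not pass the filter on low counts used with edgeR.

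Markers of other cell types were compared over libraries, since the TA gate can hold several. The 22 matched Paneth cell markers summed to between 1196 and 1943 CPM in het libraries and to 1425, 1746 and 1008 CPM in hom BO25, BO57 and BP04, but to 6254 CPM in hom BN45. Of these markers 4 were higher and 1 lower in hom at an unadjusted p under 0.05, against 2.91% and 3.00% of all genes. Without BN45 the counts were 0 and 2. The count of 4 higher was 8 without BO25 and 2 without BO27. Lyz1, the Paneth lysozyme gene, was at 1070 CPM in hom BN45 against 95.0 to 265 CPM in the other 7 libraries. Enteroendocrine markers summed to between 204.4 and 875.6 CPM in het and between 195.4 and 737.4 CPM in hom libraries. Goblet markers summed to between 8407 and 20430 CPM in het and 6819 and 16610 CPM in hom libraries, and enterocyte markers to between 10170 and 15540 and between 8734 and 16110 CPM. For both lists 0 members had an unadjusted p under 0.05 by edgeR. Immune markers summed to at most 53.01 CPM, with Cd3e of T cells at 0 in all 8 libraries. Of 8 tested immune markers 3 had a positive and 5 a negative sign, with a median log2 fold change of -0.34. At an unadjusted p under 0.05, 2 of them were higher, Cd68 and Lyz2, against 2.91% of all genes higher. The count of 2 was 1 without BN44, BN45, BO27, BO57, BO58 or BP03. Only 1 of the 8, Cd68, had every hom library above every het library, against 2.08% of all genes. Cd68, a macrophage lysosomal gene, stood at 1.54 to 2.68 CPM in het and 3.14 to 6.77 CPM in hom libraries with no overlap (log2 1.31, SE 0.34, edgeR adjusted p = 0.58, DESeq2 adjusted p = 0.035). Immediate early and dissociation stress genes summed to 4956 CPM in het BN44 and 3855 CPM in hom BN45 against 682 to 1742 CPM in the other 6 libraries, so the high libraries were of both genotypes. The ranges given for Coq9 and Ephx1 include the fits without each of these libraries. The part of these markers in the other results was not tested.

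**Figure D5:**
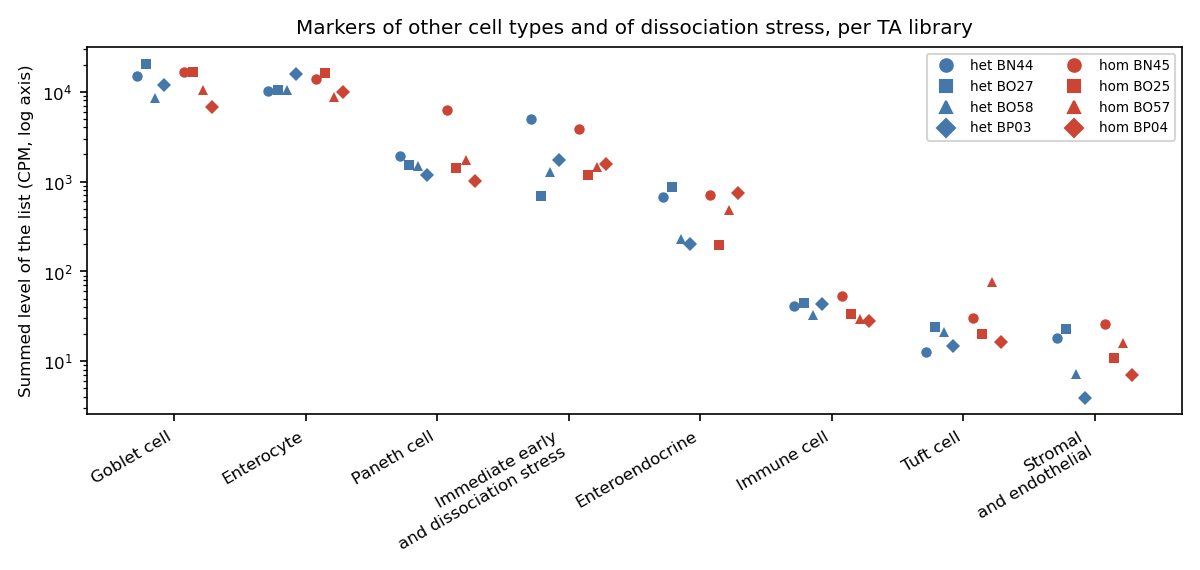
Summed level (CPM, log axis) of marker lists of other cell types and of dissociation stress in each TA library, het in blue and hom in red, with neighbouring animal codes sharing a symbol. Hom BN45 stands apart in Paneth markers (6254 CPM), and het BN44 (4956 CPM) and hom BN45 (3855 CPM) stand apart in stress genes.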

How the data were processed

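RNA was sequenced from sorted crypt cells after low-input cDNA amplification. Per the file headers, the authors' deposited counts were made with featureCounts without strand (-s 0), with Ensembl 98 genes; per the submitters' processing notes, bcl2fastq 2.20.0, featureCounts 2.0.1 and mm10 were used. For the aligner, no version is given in the sources used here. Of the table, 92 ERCC spike-in features were left out and 55421 genes kept. Names and positions came from GENCODE M21.

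The 4 hom and 4 het TA libraries were fitted with edgeR 4.0.16 (TMM, filterByExpr, quasi-likelihood F test, Benjamini-Hochberg adjustment) in R 4.3.3. SE is the absolute log2 fold change over the square root of F. Differences between fractions came from 1 fit of 24 libraries. The method was tested on simulated data. Alternatives used DESeq2 1.42.0, limma 3.58.1, other filters, scalings and terms, and each library left out. For differences between fractions each animal was left out instead. Single values were compared by exact permutation (smallest two-sided p 0.0286). Text names the 15 lower and 15 higher genes of smallest p with a mean of at least 5 CPM, leaving out symbols of Gm and digits, those ending in Rik or -ps, and unnamed IDs, as well as list members, pseudogenes or low genes called in some fit, and genes said to be chosen after their values were seen. Members, lists and alternatives were chosen with earlier results of these data known. In fits of the TA libraries alone each library is a separate animal, so those p-values measure the spread between animals. The fit of 24 libraries holds 3 fractions of each of 8 animals and has no term for animal. Its p-values therefore do not measure the spread between animals alone.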

Additional observations from a re-analysis of the deposited data

Results flagged for a closer look

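Within groups of 4 libraries, single libraries standing far from the other 3 were found in 11 of 152 group tests, and chance gives about 1 in 20. Nabp1 was at 25.7 CPM in hom BN45 against 12.2 to 13.3 CPM, and the pseudogene AC139296.1 at 6.90 CPM in hom BO25 against 9.30 to 9.62 CPM. In hom BN45 the Paneth markers summed to 6250 CPM (1010 to 1750 CPM in the other hom libraries), immediate early and dissociation stress genes to 3850 CPM (1190 to 1550 CPM), and ribosomal protein genes took 2.13% of non-mitochondrial counts (2.37 to 2.40%). In het BN44 the mitochondrially encoded genes summed to 97600 CPM (119000 to 122000 CPM), regenerative and fetal-like genes to 1840 CPM (1110 to 1200 CPM) and crypt claudins to 2270 CPM (1330 to 1460 CPM). Notch pathway genes summed to 505 CPM in hom BO25 (416 to 431 CPM). Enterocyte markers summed to 15500 CPM in het BP03 (10200 to 10500 CPM). The 10 most abundant genes took 5.64% of non-mitochondrial counts in het BO27 (5.18 to 5.26%).

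The genotype difference of Cyp2c55 differed between TA and Paneth libraries by -7.09 on the log2 scale in the edgeR test of that difference.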

How the results depend on the processing

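For hom against het in TA cells, 0 genes passed in edgeR, and the count was 121 by DESeq2, 4 at a mean of 5 CPM, 5 at a mean of 5 CPM with the replicate block, 1 in the fit of 24 libraries and 2 with sex as a term, and 0 without any 1 library. With the replicate block alone 0 genes passed, and 789 were higher and 802 lower at an unadjusted p under 0.05 (464 and 478 without it); the block gave 8 and 5 for complex I, 16 and 4 for complexes II to V, 4 and 2 for mitochondrially encoded genes, and 33 and 0 for cytosolic ribosomal proteins. The labels do not say that neighbouring animal codes pair, and same-pair correlations of deviations were 0.303, 0.082, 0.115 and 0.144, so the pairing was not used; every library correlated best with its neighbour, a hint from the data and not the design. For TA minus stem the count was 0, 19 by DESeq2, and 0 to 1 leaving out 1 animal with its libraries of all fractions. For TA minus Paneth it was 1, 0 by limma voom with animal as a random block, 31 by DESeq2, and 0 to 2 leaving out 1 animal. Setd1a had a log2 fold change of 0.13, and leaving out 1 library gave -0.0143 (without het BN44) to 0.327, with -0.00447 without hom BO25. None of the 30 leading genes, Rps13-ps1 or Rps13-ps2 changed sign; Mki67 (-0.16 to 0.07), Setd1b (-0.11 to 0.14), Muc2 (-0.68 to 0.01), Lyz1 (-0.18 to 1.44), Rps13 (-0.12 to 0.34) and Cyp2c55 (-0.17 to 0.46) did over the alternatives. The cause of these changes was not tested. Of 32 list medians under each of 11 settings, 339 stayed within the spread and 13 moved. Precision is limited by 4 animals a group.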
